A study of Mus musculus with 51 samples.

Results

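Ero1a and the procollagen hydroxylases were followed as 7 genes, Ero1a, P4hb, P4ha1, P4ha2, Plod1, Plod2 and Plod3. Members were all probe sets whose only gene symbol was one of these names, which gave 11 of the 22626 probe sets on the array. Ero1a was read by 3 probe sets, P4ha1 and Plod2 by 2 each, and the other genes by 1 each. All 11 passed the filter on low signal in the larger of the tables (times 12 h, 48 h, 15 d), and 10 passed it in the smaller one (6 d, 9 d), where probe set 1426519_at of P4ha1 was too dim to be tested.

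Collagen chains are modified in the endoplasmic reticulum before they leave the cell. Prolyl 4-hydroxylase, made of a catalytic alpha subunit (P4ha1 or P4ha2) and the beta subunit P4hb, stabilises the triple helix, and the lysyl hydroxylases Plod1, Plod2 and Plod3 prepare lysines for cross-links. These hydroxylases use molecular oxygen, iron, 2-oxoglutarate and ascorbate. P4hb is also protein disulfide isomerase, and Ero1a is the oxidase that re-oxidises such isomerases, with oxygen as the final acceptor. Several of these genes are known targets of hypoxia-inducible factor, while collagen itself comes mostly from stromal cells, which is why hypoxia genes and stromal genes are set beside them here.

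RNA of ventral prostate came from wild type FVB mice and from FVB mice carrying an AKT1 transgene, all 8 to 10 weeks old, on 51 arrays in 13 groups. The transgene's promoter, the dose of RAD001 (everolimus, an inhibitor of mTOR) and whether an array held 1 animal or a pool are not given in the sources used here. Wild type mice received placebo for 12 h (4 arrays), 48 h (4 arrays) or 15 d (3 arrays), and transgenic mice received placebo for 12 h (4 arrays), 48 h (5 arrays), 15 d (7 arrays), 6 d (1 array) or 9 d (1 array). Transgenic mice received RAD001 for 12 h (5 arrays), 48 h (4 arrays), 15 d (6 arrays), 6 d (3 arrays) or 9 d (4 arrays). None of the 51 arrays came from wild type mice under RAD001, so a RAD001 difference without the transgene cannot be given. Labels call the arrays of a group biological replicates.

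Array medians lay from 91.59 to 109.3 in the larger table (42 arrays) and from 98.09 to 110.4 in the smaller (9 arrays), which were scaled apart, so levels are compared within a table only. Luminal epithelial markers were well expressed, with a mean log2 level over 11 genes from 9.84 to 11.2 across transgenic placebo arrays. The 15 d arrays fell into 2 sets on the leading principal component, which carried 26.5% of the variance. Set A held all 3 wild type, 2 placebo and 2 RAD001 arrays, and set B held 5 transgenic placebo and 4 RAD001 arrays and no wild type. Transgenic placebo 15 d replicates 8 and 9, both in set B, also listed 835 and 1092 probe sets at exactly 0. Genotype at 15 d therefore cannot be fully told apart from array set, and 15 d member calls that were lost without set B are given both ways.

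The promoter windows show which members carry the core of the hypoxia response element next to the start. In the RefSeq windows of build GRCm38.p6, the 250 bases before the start were searched on both strands for ACGTG and GCGTG, and for the endoplasmic reticulum stress element (its consensus with a fixed spacer). Of 32851 windows of this length, 16.6% held ACGTG, 28.2% held GCGTG, 38.6% held at least one of them and 0.113% held the stress element. A window was found for 6 of the 7 genes, all but Plod2. Those 6 held at least one of the short motifs, and none held the stress element. Ero1a (chr14:45318573-45318822, minus strand), P4ha1 (chr10:59323046-59323295, plus strand) and P4ha2 (chr11:54100674-54100923, plus strand) each had 1 ACGTG and 2 GCGTG, and Plod3 (chr5:136986769-136987018, plus strand) had 1 and 3. P4hb had 1 of each and Plod1 had 1 GCGTG. The 4 windows with the most matches are printed 5′ to 3′ in the direction of the gene, and capitals mark a match on either strand, none of which overlaps another there. Plod3 is shown because its motifs are the most numerous while its expression differed from that of Ero1a, as given with the values. A match is a run of letters, not evidence of binding.
Ero1a: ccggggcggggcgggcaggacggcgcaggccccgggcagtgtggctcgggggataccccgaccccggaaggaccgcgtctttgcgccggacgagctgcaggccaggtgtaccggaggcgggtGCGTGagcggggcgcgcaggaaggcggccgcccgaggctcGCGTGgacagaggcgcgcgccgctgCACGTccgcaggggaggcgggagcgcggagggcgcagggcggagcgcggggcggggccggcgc
P4ha1: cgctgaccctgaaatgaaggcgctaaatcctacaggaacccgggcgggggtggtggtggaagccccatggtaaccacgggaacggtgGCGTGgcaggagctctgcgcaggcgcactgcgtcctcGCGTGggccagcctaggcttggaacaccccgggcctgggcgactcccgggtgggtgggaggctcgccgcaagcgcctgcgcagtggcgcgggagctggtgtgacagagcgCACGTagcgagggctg
P4ha2: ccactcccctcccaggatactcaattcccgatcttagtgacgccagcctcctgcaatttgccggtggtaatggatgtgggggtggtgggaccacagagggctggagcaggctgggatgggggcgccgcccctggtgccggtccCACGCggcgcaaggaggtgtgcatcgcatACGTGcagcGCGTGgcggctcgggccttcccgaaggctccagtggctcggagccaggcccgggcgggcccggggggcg
Plod3: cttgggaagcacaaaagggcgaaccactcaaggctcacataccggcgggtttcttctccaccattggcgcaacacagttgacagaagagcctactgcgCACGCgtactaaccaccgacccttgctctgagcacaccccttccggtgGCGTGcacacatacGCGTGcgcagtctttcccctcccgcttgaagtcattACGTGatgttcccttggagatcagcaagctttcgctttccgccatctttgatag

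Ero1a, the oxidase, was the member with the largest difference between transgenic and wild type glands. At probe set 1419029_at, wild type arrays read 188, 130, 141 and 136 at 12 h, 169, 161, 157 and 142 at 48 h, and 203, 180 and 224 at 15 d. Transgenic placebo arrays read 321, 508, 474 and 368 at 12 h, 426, 534, 566, 678 and 235 at 48 h, and from 343 to 557 with a median of 437 at 15 d. Every transgenic placebo array lay above every wild type array, the closest being replicate 5 of 48 h at 235 against 224.

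The limma difference at this probe set was 1.48 ± 0.23 (SE, log2 intensity, adjusted p = 1.15e-05) at 12 h, 1.55 ± 0.22 (adjusted p = 2.98e-06) at 48 h and 1.10 ± 0.22 (adjusted p = 0.00078) at 15 d. Averaged over the times it was 1.38 ± 0.13 (adjusted p = 1.8e-10), which is 2.6-fold. Probe set 1419030_at gave an average of 1.38 ± 0.18 (adjusted p = 1.41e-07), and 1449324_at gave 1.85 ± 0.18 (adjusted p = 5.26e-10). Thus all 3 Ero1a probe sets rose at each time, and the groups did not overlap at any time. Without set B the 15 d differences were 1.33, 1.51 and 1.62, and that of 1419030_at no longer passed (adjusted p = 0.0546).

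Probe set 1449324_at read 117, 120, 147 and 162 in wild type and 339, 529, 707 and 446 in transgenic placebo glands at 12 h. At 15 d it read 150, 201 and 139 in wild type against 490 to 859, with a median of 703, in transgenic placebo. The 3 probe sets moved together from array to array: over the 42 arrays their Pearson r was from 0.87 to 0.88, and from 0.59 to 0.63 after group means were removed. Genes with the most similar profile to 1419029_at were Bnip3 (r = 0.89), Tpi1 (0.88) and Gusb (0.88). Those most like 1449324_at were Ak4 (0.91), Tpi1 (0.86) and Rab11a (0.84), and those most like 1419030_at were Isoc1 (0.85), Ak4 (0.82) and Bnip3 (0.82). These correlations run across groups, so they share the group differences, and they carry no test.

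**Figure D1:**
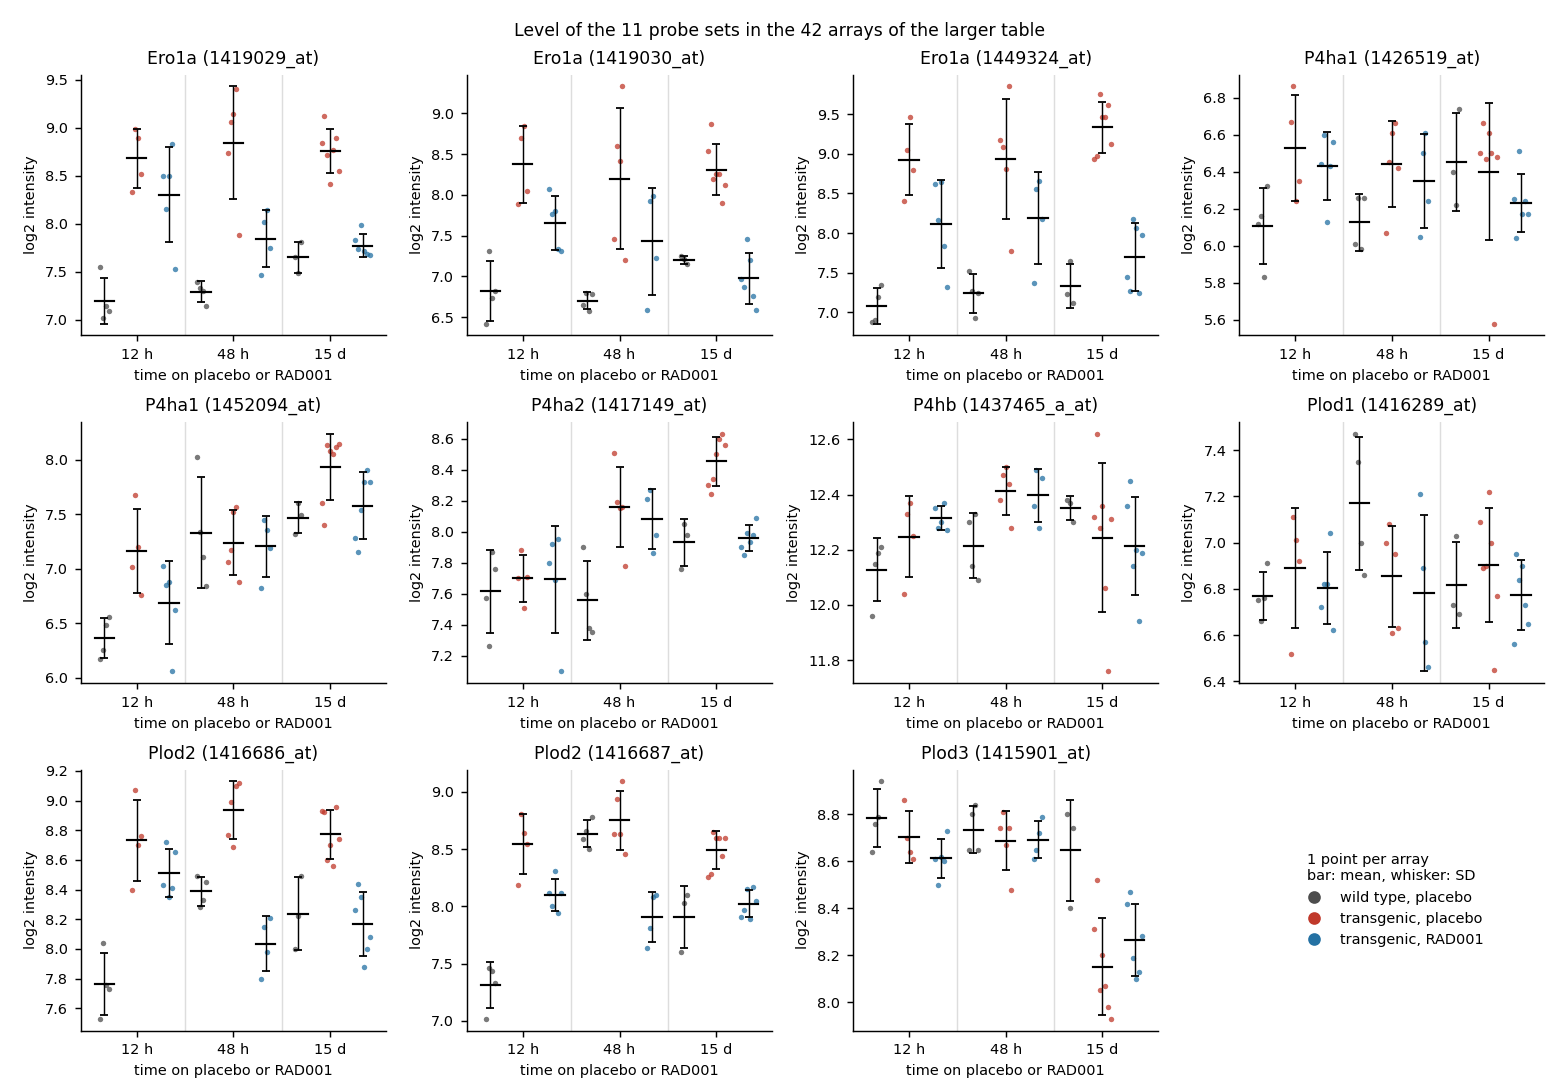
Log2 intensity of the 11 member probe sets on the 42 arrays of the larger table, by genotype, treatment and time; each point is 1 array, bars are group means and whiskers the SD. Ero1a at 1419029_at has a mean of 8.84 in transgenic placebo glands at 48 h and 7.29 in wild type.

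Ero1a differences under RAD001 were negative at each time, and some passed at 48 h, 15 d and over 6 d and 9 d. After 12 h of RAD001 probe set 1419029_at read 361, 285, 361, 454 and 185, which overlaps the placebo arrays, and the difference was -0.38 ± 0.22 (adjusted p = 0.523). The other probe sets gave -0.72 ± 0.30 (1419030_at, adjusted p = 0.293) and -0.82 ± 0.30 (1449324_at, adjusted p = 0.21) at 12 h. Neither passed, and at both all 5 RAD001 arrays lay below the placebo mean. After 48 h it read 177, 259, 282 and 216, against placebo values of which only replicate 5 (235) lay in that range. The 48 h difference was -1.0 ± 0.22 (adjusted p = 0.00673).

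The other Ero1a probe sets gave -0.77 ± 0.30 (1419030_at, adjusted p = 0.157) and -0.75 ± 0.30 (1449324_at, adjusted p = 0.179) at 48 h and did not pass. One placebo array weighs on this: without replicate 5 of 48 h, 1449324_at gave -1.04 (adjusted p = 0.0388). In a fit of the compared groups alone the call of 1419029_at was lost (adjusted p = 0.0977).

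After 15 d of RAD001 probe set 1419029_at read from 205 to 254 with a median of 212, below all placebo arrays (343 to 557). Probe set 1449324_at read from 151 to 291 with a median of 213, against 490 to 859. The 15 d differences were -0.99 ± 0.18 (1419029_at, adjusted p = 0.000608), -1.33 ± 0.25 (1419030_at, adjusted p = 0.000848) and -1.63 ± 0.25 (1449324_at, adjusted p = 7.07e-05). All 3 fell, with no overlap between groups. Within set B alone they were -0.90, -1.14 and -1.62, all still called. Without set B, which leaves 2 placebo and 2 RAD001 arrays, they were -1.20, -1.79 and -1.60, and none passed (adjusted p = 0.165, 0.105 and 0.154).

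In the smaller table the single placebo arrays read 482 (6 d) and 344 (9 d) at 1419029_at. RAD001 arrays read 108, 125 and 115 at 6 d and 104, 76.1, 72 and 123 at 9 d, all below both placebo arrays. Averaged over both days, Ero1a fell by 1.98 ± 0.23 (1419029_at, adjusted p = 0.0101), 1.86 ± 0.23 (1419030_at, adjusted p = 0.0134) and 1.75 ± 0.16 (1449324_at, adjusted p = 0.00329) on the log2 scale. With 1 placebo array a day, these calls borrow the spread of the RAD001 arrays: 1 passed without the placebo array of 6 d, and 0 without that of 9 d.

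Beside wild type, RAD001-treated transgenic glands were still higher in Ero1a at 12 h, by 1.10 ± 0.22 (adjusted p = 0.000395), 0.83 ± 0.30 (adjusted p = 0.0492) and 1.03 ± 0.30 (adjusted p = 0.0161). The call of 1419030_at was lost in 8 of 19 alternatives (0.70 to 0.84), among them no filter (adjusted p = 0.0728), median scaling (adjusted p = 0.0604) and leaving out wild type replicate 1, 3 or 4 or RAD001 replicate 1, 2 or 3. That of 1449324_at was lost without wild type replicate 1 or RAD001 replicate 1 or 3 (0.90 to 0.96). At 48 h only 1449324_at passed, at 0.95 ± 0.32 (adjusted p = 0.0455), while 1419029_at gave 0.55 ± 0.23 and 1419030_at gave 0.73 ± 0.32. The 48 h call was lost with no filter (adjusted p = 0.0628) and without any of 7 of the 8 single arrays, all but RAD001 replicate 1, at 0.79 to 1.04. With the replicate block the other probe sets passed, at 0.77 (adjusted p = 0.00813) and 0.92 (adjusted p = 0.03). At 15 d the differences were 0.12 ± 0.23, -0.23 ± 0.32 and 0.36 ± 0.32 (adjusted p = 0.817, 0.739 and 0.562), and 0.13, -0.28 and 0.02 without set B. In order of mean log2 level, 1419029_at ran transgenic placebo 48 h (8.84), 15 d (8.76) and 12 h (8.68), then RAD001 12 h (8.30), 48 h (7.84) and 15 d (7.77), then wild type 15 d (7.66), 48 h (7.29) and 12 h (7.20). Only the step from wild type 15 d to 48 h (0.37) was larger than the SD of the groups on either side of it. At 1449324_at a step beyond the spread lay below the transgenic placebo groups, from 8.93 to 8.19.

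P4hb, the isomerase that Ero1a oxidises and the beta subunit of prolyl 4-hydroxylase, did not pass in any genotype or RAD001 comparison as fitted over all arrays. Its arrays read from 3990 to 4750 in wild type and from 4220 to 5290 in transgenic placebo glands at 12 h. At 15 d they read from 5060 to 5340 in wild type, 3470 to 6300 in transgenic placebo and 3930 to 5610 under RAD001, with overlap throughout. The average genotype difference was 0.07 ± 0.06 (adjusted p = 0.41). It was 0.15 without set B (adjusted p = 0.0155), 0.14 with array set as a block (adjusted p = 0.044), 0.15 with the replicate block (adjusted p = 0.0174) and -0.23 with the hypoxia score as a covariate (adjusted p = 0.0242), so its call depends on the setting. The RAD001 difference at 15 d was -0.03 ± 0.09 (adjusted p = 0.883). The genes most like it were H2-D1 (r = 0.79), Edem2 (0.75) and Eif2ak1 (0.75).

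P4ha2, a catalytic alpha subunit, differed between genotypes at 48 h and 15 d. At 12 h it read 191, 153, 233 and 217 in wild type and 208, 235, 182 and 210 in transgenic placebo, with a difference of 0.08 ± 0.15 (adjusted p = 0.773). At 48 h it read 239, 195, 166 and 164 against 365, 292, 283, 286 and 219. At 15 d it read 217, 265 and 252 against 303 to 396 with a median of 361. It rose by 0.60 ± 0.15 (adjusted p = 0.00251) at 48 h, where 1 transgenic array overlapped wild type, and by 0.52 ± 0.15 (adjusted p = 0.0132) at 15 d, where none did. Its average over the times was 0.40 ± 0.09 (adjusted p = 0.000407). The F-test for a genotype difference that changes with time did not pass (F = 3.36, adjusted p = 0.129).

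Under RAD001 at 15 d P4ha2 read from 231 to 273 with a median of 249, below every placebo array. It fell by 0.49 ± 0.12 (adjusted p = 0.0106), and by 0.40 without set B (adjusted p = 0.759). The call was also lost without the arrays with over 500 zeros (-0.43, adjusted p = 0.0664) and with the replicate block (-0.40, adjusted p = 0.1), and within set B it passed (-0.52, adjusted p = 0.038). At 12 h and 48 h the RAD001 differences were -0.01 ± 0.15 and -0.08 ± 0.15, and at 6 d and 9 d it was -0.23 ± 0.17 (adjusted p = 0.809). At 48 h RAD001-treated glands were still above wild type by 0.52 ± 0.15 (adjusted p = 0.022). That call was lost with the compared groups alone (adjusted p = 0.0503) and without wild type replicate 3 or 4 or RAD001 replicate 1 or 2 (adjusted p = 0.0592 to 0.0782). The 15 d genotype difference was 0.34 without set B (adjusted p = 0.53) and 0.44 without wild type replicate 1 (adjusted p = 0.113). The most similar genes were Cyb5r3 (r = 0.77), Mdh2 (0.74) and Ube2f (0.73).

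P4ha1, the other alpha subunit, gave probe sets that did not track each other (r = 0.13 over the arrays), so no single value describes the gene. At 1452094_at wild type arrays read 72.3, 76.1, 89 and 94.5 at 12 h and transgenic placebo arrays 130, 206, 147 and 108, without overlap. At 48 h they read 262, 162, 138 and 115 against 133, 144, 183, 190 and 118, and at 15 d 160, 194 and 180 against 169 to 284 with a median of 270. It rose at 12 h by 0.80 ± 0.23 (adjusted p = 0.0104), and the other times gave -0.09 ± 0.22 and 0.46 ± 0.22 (adjusted p = 0.814 and 0.134), with 0.03 at 15 d without set B. The average was 0.39 ± 0.13 (adjusted p = 0.0175), and 0.24 without set B (adjusted p = 0.183). Without transgenic placebo 12 h replicate 2 the 12 h value was 0.63 (adjusted p = 0.0664).

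Wild type glands themselves were higher at 48 h than at 12 h at this probe set, by 0.97 ± 0.23 (adjusted p = 0.00385). RAD001 changed neither P4ha1 probe set past the threshold. At 15 d 1452094_at gave -0.35 ± 0.18 (adjusted p = 0.277) and 1426519_at gave -0.17 ± 0.14 (adjusted p = 0.521). Without set B they gave -0.28 and -0.44 (adjusted p = 0.981 and 0.655). Probe set 1426519_at was dim, at 48 to 116 on the larger table, with a genotype average of 0.23 ± 0.10 (adjusted p = 0.0732). It passed in 12 of 42 alternatives, such as without transgenic placebo 15 d replicate 9 (0.27, adjusted p = 0.00798), the array that read 48, and with array weights (0.31, adjusted p = 0.00236). Its nearest profile was that of Mxi1 (r = 0.80), a listed hypoxia target, while 1452094_at was nearest to Rab11a (0.88), Hspa4l (0.87) and Hsph1 (0.86).

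Plod2, the lysyl hydroxylase of collagen telopeptides, also rose with the transgene and fell with RAD001, at both of its probe sets but not at every time. P4ha2 did so at its only probe set, with a RAD001 call at 15 d alone. At 1416686_at wild type arrays read 185, 262, 217 and 213 at 12 h, 359, 312, 322 and 350 at 48 h, and 255, 297 and 359 at 15 d. Transgenic placebo arrays read 338, 537, 416 and 434 at 12 h, 438, 508, 414, 549 and 555 at 48 h, and 377 to 498 with a median of 428 at 15 d. At each time every transgenic array lay above every wild type array of that time. Plod2 rose there by 0.97 ± 0.14 (adjusted p = 4.32e-06), 0.55 ± 0.13 (adjusted p = 0.00229) and 0.54 ± 0.14 (adjusted p = 0.00532), with an average of 0.68 ± 0.08 (adjusted p = 1.46e-08). The 15 d call was lost without wild type replicate 1 of that time (0.42, adjusted p = 0.0846).

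The second Plod2 probe set, 1416687_at, showed a genotype difference that changed with time. Wild type arrays read 129, 176, 174 and 161 at 12 h but 385, 404, 362 and 441 at 48 h, and 193, 262 and 275 at 15 d. Transgenic placebo arrays read 292, 449, 399 and 373 at 12 h and 397, 490, 397, 545 and 352 at 48 h. Wild type glands at 48 h thus reached the transgenic range, with a rise over 12 h of 1.32 ± 0.14 (adjusted p = 3.95e-07). The genotype difference was 1.23 ± 0.14 (adjusted p = 6.93e-08) at 12 h, 0.12 ± 0.13 (adjusted p = 0.574) at 48 h and 0.58 ± 0.14 (adjusted p = 0.00313) at 15 d, and limma's F-test over the times gave F = 16.93 (adjusted p = 0.00129). Without set B the 15 d value was 0.36 (adjusted p = 0.394), and without wild type replicate 1 it was 0.42 (adjusted p = 0.0755). At 1416686_at wild type also rose between 12 h and 48 h, by 0.62 ± 0.14 (adjusted p = 0.00255), but the F-test did not pass (F = 3.18, adjusted p = 0.143).

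Plod2 was lower under RAD001 at 48 h and 15 d. At that time RAD001 arrays read 223, 284, 253 and 296 at 1416686_at and 199, 224, 271 and 275 at 1416687_at, below all placebo arrays of 48 h. The falls were 0.90 ± 0.13 (adjusted p = 0.000103) and 0.84 ± 0.13 (adjusted p = 0.000205). At 15 d the values were 236 to 346 (median 288) and 237 to 288 (median 259), and Plod2 fell by 0.60 ± 0.11 (adjusted p = 0.000597) and 0.47 ± 0.11 (adjusted p = 0.00781). Without set B those became -0.58 and -0.33 and did not pass (adjusted p = 0.264 and 0.782), and within set B they were -0.63 and -0.51 and did.

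At 12 h the RAD001 differences of Plod2 were -0.22 ± 0.13 (adjusted p = 0.56) and -0.44 ± 0.13 (adjusted p = 0.0837). At 6 d and 9 d every RAD001 array lay below the placebo arrays, 129 to 224 against 235 and 247 at 1416686_at, and 366 to 492 against 659 and 664 at 1416687_at. The averages were -0.45 ± 0.21 (adjusted p = 0.537) and -0.67 ± 0.14 (adjusted p = 0.0963), so neither passed. Against wild type of 12 h, RAD001-treated glands were higher by 0.75 ± 0.13 (1416686_at, adjusted p = 0.000103) and 0.79 ± 0.13 (1416687_at, adjusted p = 5.33e-05). Against wild type of 48 h, where wild type values were high, they were lower at 1416687_at by 0.73 ± 0.14 (adjusted p = 0.000714). There 1416686_at gave -0.35 ± 0.14 (adjusted p = 0.0909) and passed with the replicate block (-0.41, adjusted p = 0.0299). At 15 d the differences were -0.07 ± 0.14 and 0.11 ± 0.14, and neither passed. By level, 1416687_at ran from 8.75 in transgenic placebo at 48 h and 8.63 in wild type at 48 h down to 7.31 in wild type at 12 h, with steps beyond the spread below transgenic placebo 15 d (0.39) and above wild type 12 h (0.60). The nearest genes were Fam162a (r = 0.81), Stk17b (0.81) and Bnip3 (0.79) for 1416686_at, and Hk2 (0.77), Ppp2r2a (0.74) and Taldo1 (0.74) for 1416687_at.

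Plod1 and Plod3, the other lysyl hydroxylases, did not rise. Plod1, which acts on helical lysines, read from 87.3 to 177 over the larger table and passed in no comparison, with a genotype average of -0.04 ± 0.09 (adjusted p = 0.801). Plod3, which also glucosylates hydroxylysine, read 399, 434, 442 and 492 in wild type and 466, 415, 398 and 389 in transgenic placebo at 12 h. At 15 d it read 447, 339 and 429 in wild type against 317, 368, 265, 294, 270, 253 and 243, a fall of 0.50 ± 0.10 (adjusted p = 0.00116) with overlap of the groups. The arrays of 317 and 368 were the 2 of set A, and all 5 of set B lay from 243 to 294. Without set B, which leaves 2 transgenic and 3 wild type arrays, the value was -0.24 (adjusted p = 0.371). With array set as a block it was -0.27 (adjusted p = 0.123). The Plod3 call was lost both ways, and its cause was not tested. The call of its genotype average, -0.21 ± 0.06 (adjusted p = 0.00687), was lost when 12 h and 48 h were averaged alone (-0.06, adjusted p = 0.56). With array set as a block the average still passed, at -0.13 (adjusted p = 0.046). RAD001 left Plod3 within 0.11 of placebo on the log2 scale at 12 h, 48 h and 15 d, and none passed.

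**Figure D2:**
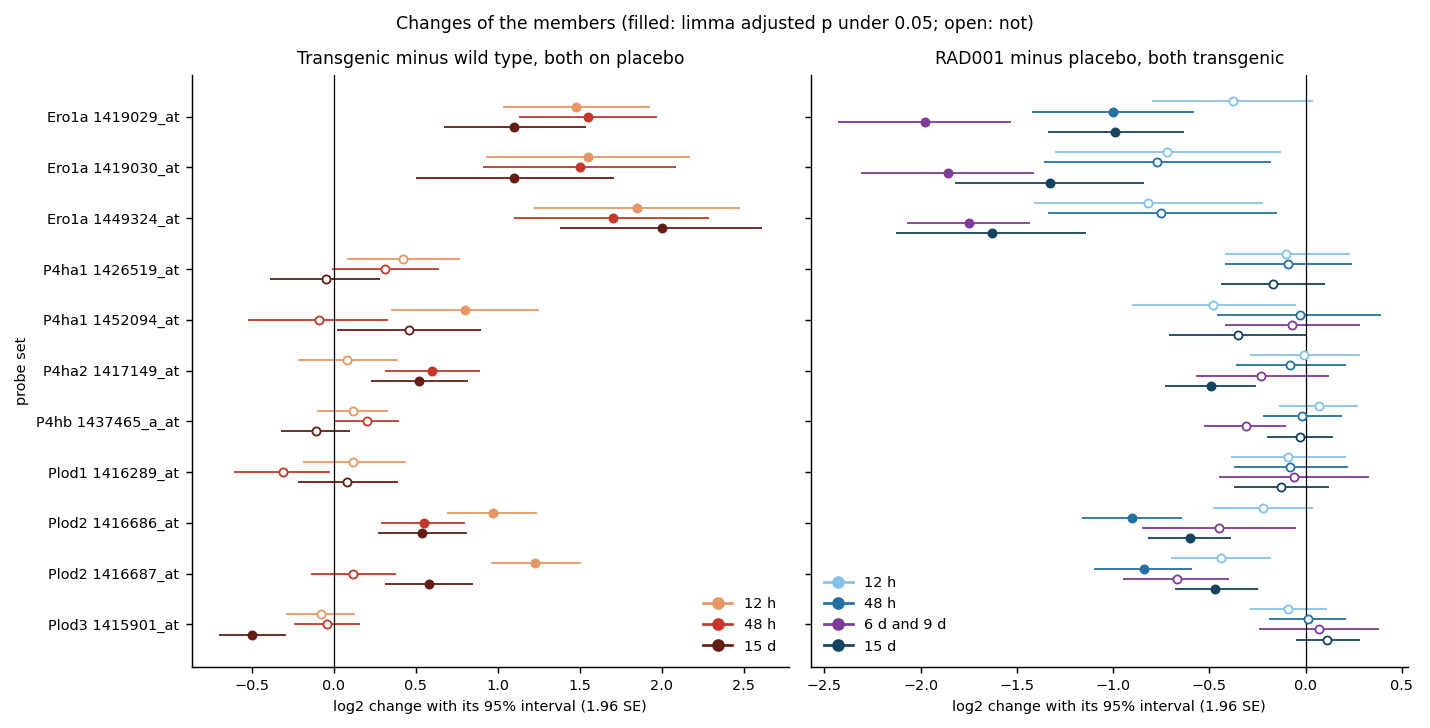
Log2 differences of the 11 member probe sets in the genotype and RAD001 comparisons, by time, with their 95% intervals as bars; filled points passed in limma at an adjusted p under 0.05. All Ero1a points lie right of 0 for genotype and left of 0 for RAD001, and P4hb and Plod1 have no filled point.

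**Figure D3:**
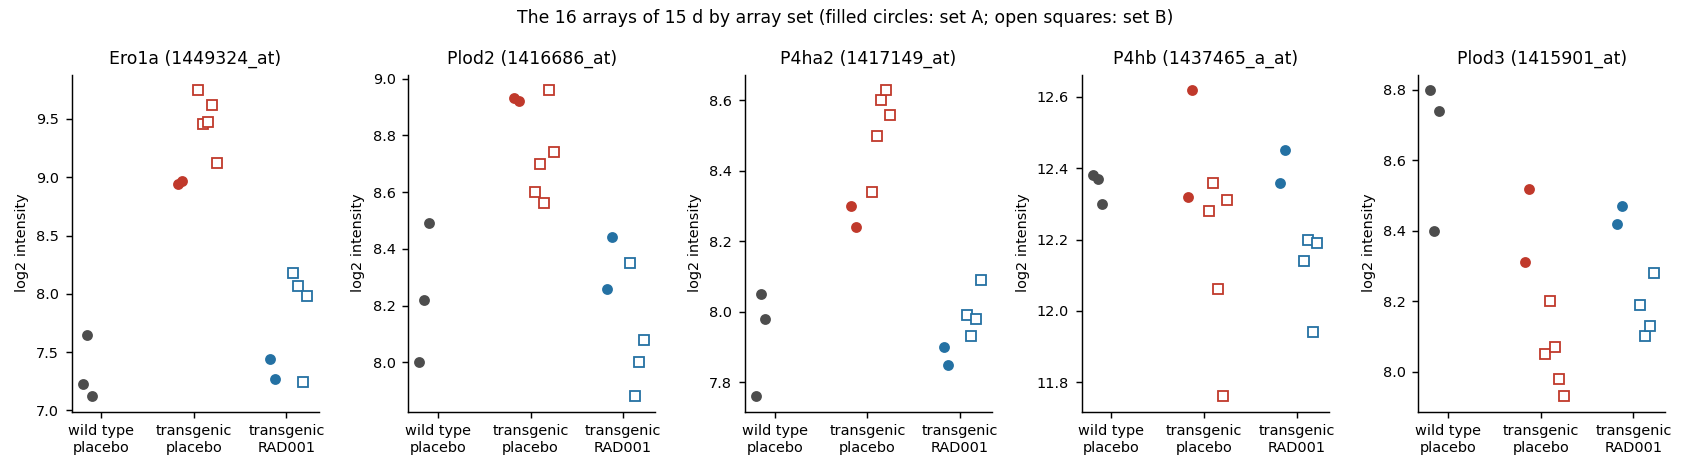
Log2 intensity of 5 member probe sets on the 16 arrays of 15 d by group, 1 point per array, with filled circles for set A and open squares for set B. Ero1a separates placebo from RAD001 in both sets, while Plod3 is lower in set B than in set A in placebo glands.

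Counted over probe sets, 7 of 11 rose and 1 fell in the genotype average, where 15.1% of all 13574 tested probe sets rose and 18.4% fell. The median member difference was 0.40 against -0.04 over all tested. At 12 h 6 rose and 0 fell (10.8% and 10.2% of all), at 48 h 5 and 0 (11.4% and 14.2%), and at 15 d 6 and 1 (10.1% and 10.9%). The 3 probe sets of Ero1a and 2 of Plod2 make up most of these counts, so they are not independent: with 1 probe set per gene, 5 of 7 genes passed in the average, Plod3 among them with a fall. Without set B the averages of P4ha1 at 1452094_at and of Plod3 did not pass (0.24 and -0.12, adjusted p = 0.183 and 0.105). The F-test over time passed for 2 (21.3% of all), Plod2 at 1416687_at and Plod3 (F = 5.83, adjusted p = 0.0372). For Plod3 it gave F = 1.67 (adjusted p = 0.421) with array set as a block, and it did not pass without wild type 15 d replicate 1 (F = 3.29) or 3 (F = 3.74), wild type 48 h replicate 1 or 4, transgenic placebo 48 h replicate 4, or transgenic placebo 15 d replicate 4, 8, 9 or 10.

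For RAD001, 0 of 11 passed at 12 h in either direction, where 0.626% of all rose and 0.840% fell in limma, and 4 had an unadjusted p under 0.05. At 48 h 0 rose and 3 fell (1.97% and 1.47% of all), and at 15 d 0 rose and 6 fell (2.42% and 3.10%), with a median of -0.47 against 0.02. At 6 d and 9 d 0 rose and 3 of 10 fell (0.258% and 0.545%). The F-test for a RAD001 difference that changes with time passed for 0 of 11 (0.398% of all) in limma, and 3 had an unadjusted p under 0.05. RAD001 and genotype comparisons use the same transgenic placebo arrays, so their opposite signs are not independent of each other.

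Against wild type, RAD001-treated glands were higher in 5 and lower in 0 at 12 h (10.1% and 7.41% of all), higher in 2 and lower in 1 at 48 h (5.93% and 6.59%), and 0 passed either way at 15 d (0.928% and 0.722%), where 1 had an unadjusted p under 0.05 in limma. That one was Plod3, at -0.39 ± 0.11 (adjusted p = 0.0526). Set B holds 4 of these RAD001 arrays and no wild type array. Without set B the Plod3 value was -0.21 (adjusted p = 0.671), and with array set as a block it was -0.17 (adjusted p = 0.762). Wild type glands at 48 h were higher than at 12 h in 3 member probe sets and lower in 0 (9.29% and 7.15% of all).

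The listed hypoxia targets and glycolysis genes that passed were mostly higher with the transgene and lower under RAD001. In the genotype average 8 of 17 measured hypoxia targets rose and 0 fell (median 0.25), among them Bnip3, a mitophagy receptor, by 1.88 ± 0.11, and Pdk1, which restrains pyruvate oxidation, by 1.60 ± 0.14. Of 11 glycolysis genes 8 rose and 0 fell (median 0.98), such as Pfkl by 1.49 ± 0.11 and Tpi1 by 1.31 ± 0.09. Under RAD001 at 48 h 4 hypoxia targets and 7 glycolysis genes fell, and at 15 d the numbers were the same, when Bnip3 fell by 1.83 ± 0.15 and Pgk1 fell by 1.21 ± 0.13. One hypoxia target rose under RAD001 at 15 d, Ddit4, which was listed at exactly 0 on at least 1 array. At 15 d 1 hypoxia target also fell between genotypes. At RAD001 12 h 1 hypoxia target and 5 glycolysis genes fell (medians -0.20 and -0.65). No Ero1a or Plod2 probe set passed then, but their differences were also negative, at -0.38, -0.72 and -0.82 for Ero1a and -0.22 and -0.44 for Plod2. The F-test for a RAD001 difference that changes with time passed for no member. At 6 d and 9 d 4 of 15 hypoxia targets and 9 of 11 glycolysis genes fell.

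The stromal genes that passed in the genotype average were all lower in transgenic glands. Of 14 smooth muscle genes 0 rose and 11 fell (median -0.92), such as Acta2 by 0.72 ± 0.08 and Tagln by 0.91 ± 0.09. Of 14 fibroblast and fibrillar collagen genes 0 rose and 5 fell (median -0.34), including Col1a2 by 0.96 ± 0.14 and Dcn, a collagen-binding proteoglycan, by 0.82 ± 0.10. By time, 2 of the 14 fibroblast genes fell at 12 h (10.2% of all tested probe sets), 5 fell and 1 rose at 48 h (14.2% and 11.4%), and 2 fell at 15 d (10.9%). The counts at 12 h and 15 d are thus near the share of all. Under RAD001 at 15 d 5 smooth muscle and 2 fibroblast genes rose, Acta2 by 0.57 ± 0.11 and Dcn by 0.70 ± 0.15. In bulk tissue, fewer cells of a type and less RNA per cell cannot be told apart. Of 11 luminal epithelial genes 7 rose and 0 fell, of 7 basal genes 0 rose and 4 fell, of 2 endothelial genes 1 rose, and of 10 macrophage and leukocyte genes 0 passed. Their part in the member differences was not tested.

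Of the other collagen maturation genes 12 were measured, and in the genotype average 1 rose and 6 fell (median -0.38), including Crtap, a partner of prolyl 3-hydroxylase, by 0.60 ± 0.10, and Sparc, a collagen chaperone, by 0.72 ± 0.14. Of 20 genes of endoplasmic reticulum oxidative folding and stress 1 rose and 7 fell (median -0.08), among them the isomerases Pdia5 by 0.66 ± 0.11, Pdia4 by 0.49 ± 0.13 and Txndc5 by 0.41 ± 0.09. Under RAD001 at 15 d 0 collagen maturation genes passed and 1 folding gene rose, Txndc5 by 0.42 ± 0.13.

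**Figure D4:**
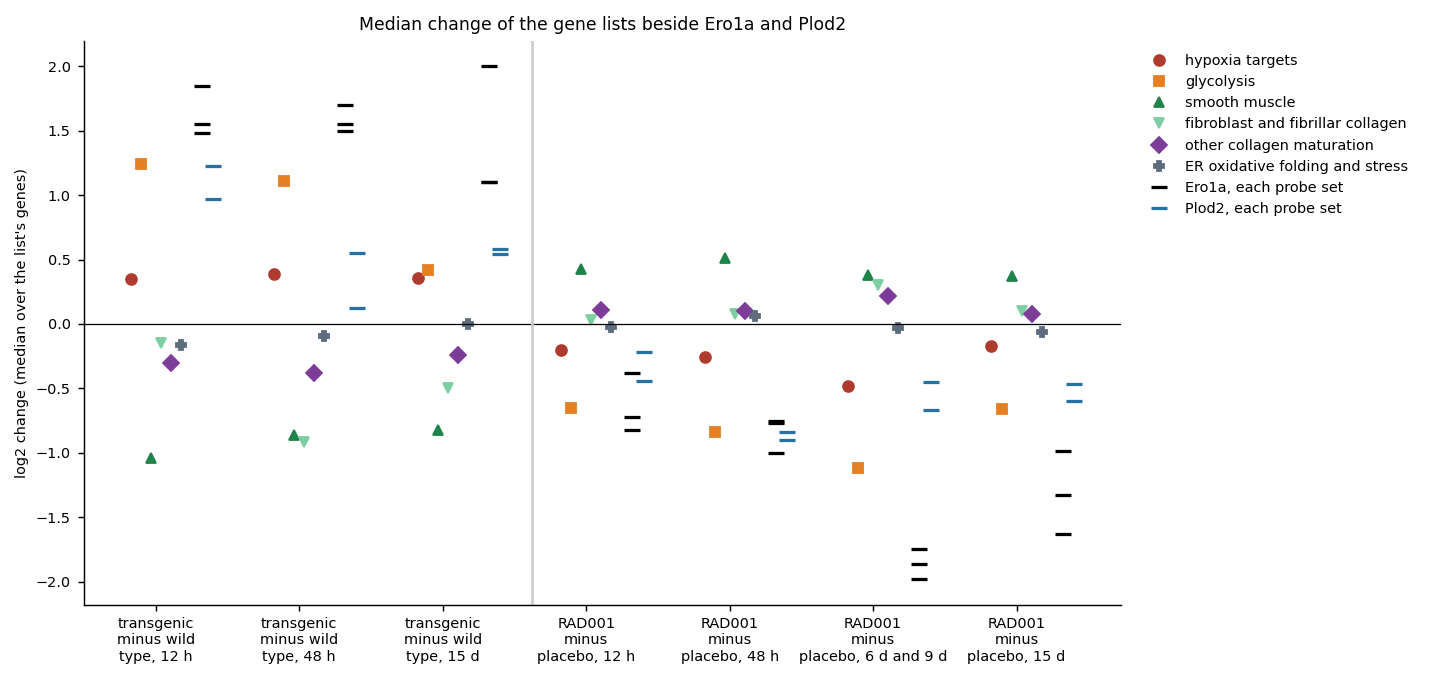
Median log2 difference over the genes of 6 lists in each genotype and RAD001 comparison, with 1 dash for each Ero1a and Plod2 probe set. At 12 h the medians between genotypes are 1.24 for glycolysis and -1.04 for smooth muscle genes, and Ero1a lies on the side of the former in every comparison.

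Whether members varied with hypoxia or stromal genes between arrays of the same group was asked with 2 scores per array in one limma fit with the group means. The hypoxia score was the mean deviation of 28 hypoxia and glycolysis genes, and the stroma score that of 28 smooth muscle and fibroblast genes, members left out. With all score genes, P4hb alone passed on the hypoxia score, at a slope of 0.48 ± 0.09 log2 per unit (adjusted p = 0.00034). This is 1 higher and 0 lower of 11, where 9.56% and 2.25% of all tested passed. The Ero1a slopes were 0.16 ± 0.28, 0.36 ± 0.38 and -0.09 ± 0.39, and those of Plod2 were -0.06 ± 0.17 at both probe sets. On the stroma score 0 of 11 passed in either direction (0% and 0% of all) in limma, and 1 had an unadjusted p under 0.05, P4hb at 0.29 ± 0.09 (adjusted p = 0.378).

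Some score genes were listed at exactly 0. Of the hypoxia score genes 5 of 17 targets and 3 of 11 glycolysis genes were at 0 on at least 1 array, and the score of transgenic placebo 15 d arrays ran from -0.83 to 0.39. With the 20 hypoxia genes never at 0, chosen after seeing the data, that group ran from 0.10 to 0.37. The Ero1a slopes then became 2.56 ± 0.59 (adjusted p = 0.112), 2.03 ± 0.96 (adjusted p = 0.789) and 3.10 ± 0.88 (adjusted p = 0.31), that of P4hb 0.39 ± 0.34 (adjusted p = 0.951), and those of Plod2 -0.02 ± 0.45 and 0.48 ± 0.44. No member passed, and 12 of all 13574 did. The P4hb call was also lost without transgenic placebo 15 d replicate 9 (0.33, adjusted p = 0.237), the array with the most zeros.

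The scores were also entered as covariates of the genotype average. With the hypoxia score of all its genes, Ero1a gave 1.29 ± 0.21 (adjusted p = 4.62e-05), 1.16 ± 0.29 (adjusted p = 0.00306) and 1.89 ± 0.30 (adjusted p = 2.61e-05), Plod2 gave 0.72 ± 0.13 and 0.68 ± 0.13 (adjusted p = 0.000132 and 0.000227), and P4ha2 gave 0.34 ± 0.14 (adjusted p = 0.069). That score lay from -0.46 to -0.09 in wild type. Transgenic placebo arrays lay above this range except 15 d replicates 4, 8 and 9 (-0.19, -0.38 and -0.83). Those arrays listed 388, 835 and 1092 probe sets at exactly 0. Apart from them score and genotype cannot be told apart, so this fit cannot decide whether Ero1a differs beyond the hypoxia genes. With the stroma score of all its genes Ero1a gave 1.28 ± 0.20, 1.54 ± 0.28 and 2.09 ± 0.28, Plod2 gave 0.76 ± 0.12 and 0.68 ± 0.12, and P4ha2 gave 0.32 ± 0.13 (adjusted p = 0.118). The stroma score also overlapped little, from -0.08 to 0.71 in wild type and from -0.74 to 0.02 in transgenic placebo glands.

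The scores from genes never at 0 did not overlap between genotypes. The hypoxia score lay from -0.39 to -0.19 in wild type and from 0.10 to 0.53 in transgenic placebo glands, and the stroma score from 0.12 to 0.71 and from -0.63 to -0.08. Score and genotype therefore cannot be told apart in fits with either. With the hypoxia score the genotype average of Ero1a was -0.31 ± 0.39, 0.08 ± 0.65 and -0.20 ± 0.59 (adjusted p = 0.999 each), that of Plod2 0.69 ± 0.30 and 0.39 ± 0.30 (adjusted p = 0.872 and 0.997), and that of P4ha2 -0.29 ± 0.31 (adjusted p = 0.999). With the stroma score of 15 genes Ero1a gave 1.28 ± 0.28 (adjusted p = 0.0203), 1.40 ± 0.39 (adjusted p = 0.0858) and 1.73 ± 0.40 (adjusted p = 0.0297), Plod2 gave 0.66 ± 0.17 (adjusted p = 0.0633) and 0.80 ± 0.17 (adjusted p = 0.0163), and P4ha2 gave 0.15 ± 0.19 (adjusted p = 0.848).

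**Figure D5:**
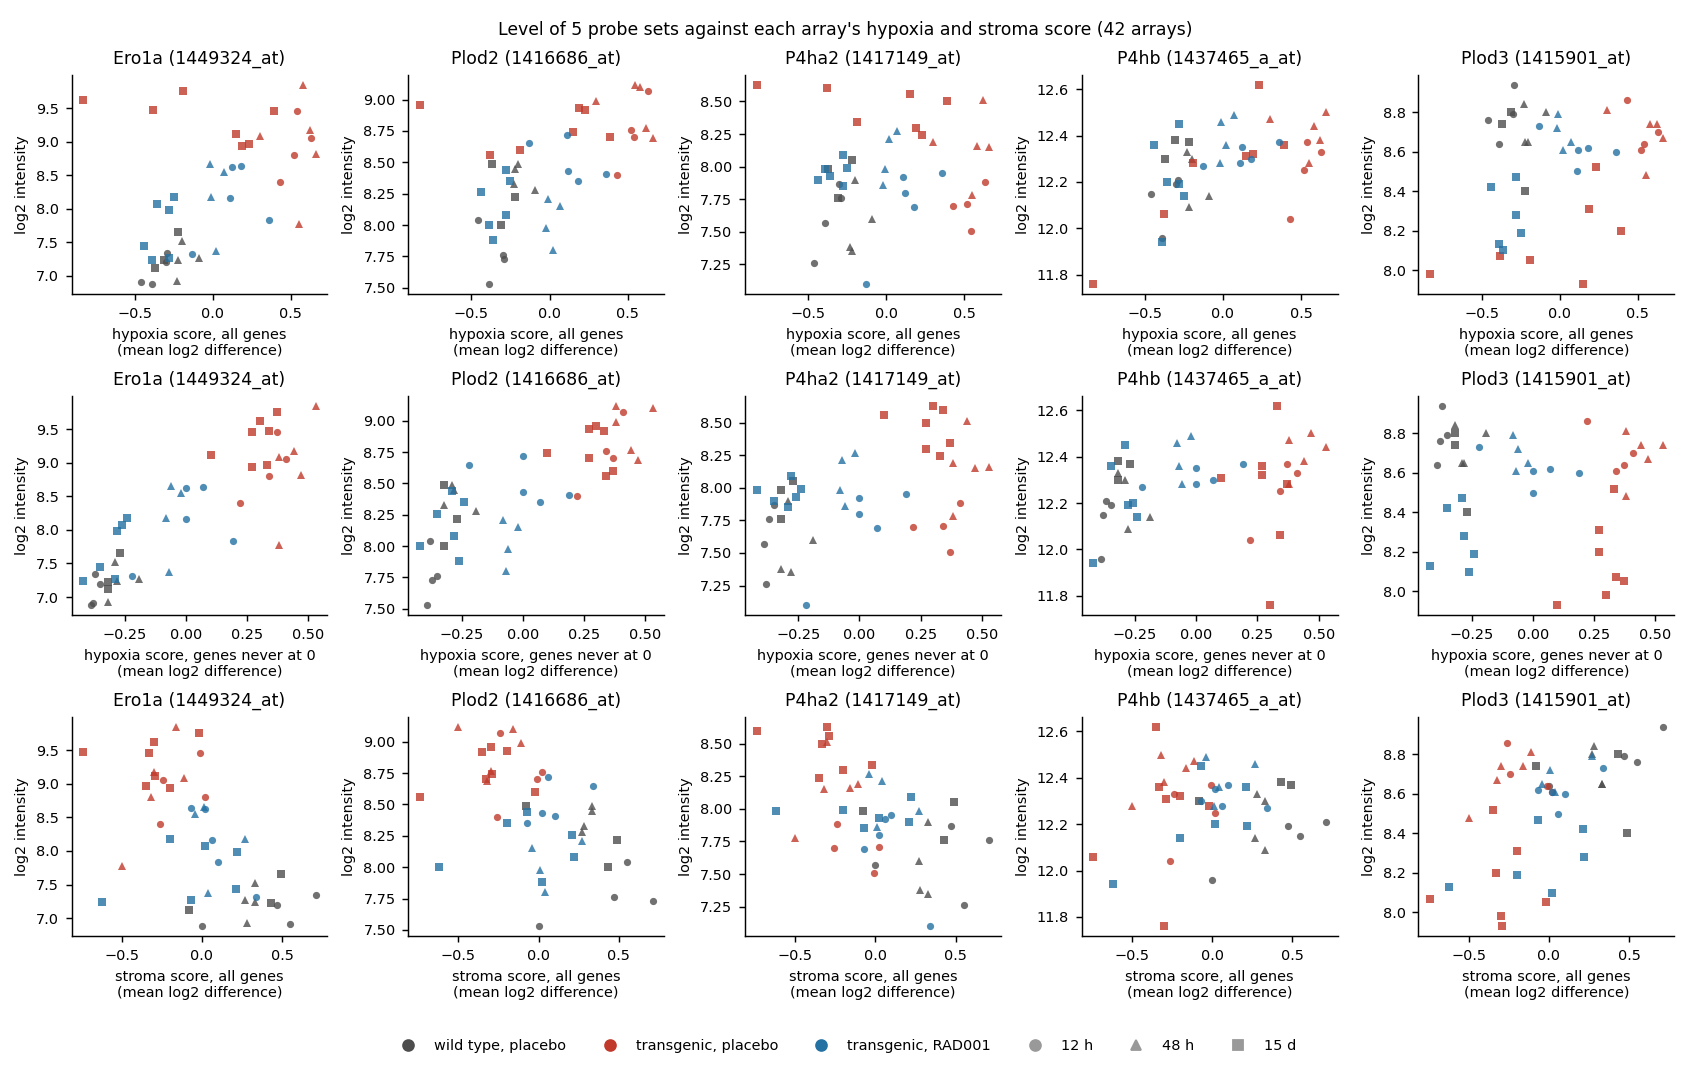
Log2 level of 5 member probe sets against the hypoxia score from all genes, the hypoxia score from genes never at 0 and the stroma score, 1 point per array for 42 arrays. Transgenic placebo 15 d arrays reach -0.83 on the first score and stay from 0.10 to 0.37 on the second.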

How the data were processed

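Biotin-labelled cRNA from Trizol-extracted RNA of ventral prostate went onto Affymetrix arrays, according to the labels. The deposited values are linear probe set intensities in 2 tables. The authors' scaling and software are not given in the sources used here.

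Intensities under 16 were set to 16 (10.3% to 15.8% of the values per array of the larger table, 9.15% to 14.1% of the smaller, with 28 negative values) and log2 was taken. Of the larger table, 2 probe sets with 3 values above 65535 were left out. Probe sets with a mean log2 under the 40th percentile of a table were not tested. This left 13574 and 13576 probe sets, each tested apart. Names came from a platform annotation updated through Entrez identifiers: 20380 probe sets have 1 symbol, 691 several and 1555 none.

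Each table was fitted with limma 3.58.1 under R 4.3.3, 1 mean per group and moderated variances with an intensity trend. P-values were adjusted by Benjamini-Hochberg over all tested probe sets, with a threshold of 0.05, and a difference is called where it passes. The fit was tested on simulated data. Named were all member probe sets, up to 4 genes of a list with the smallest p, each list gene read by its brightest probe set, and the 3 genes most correlated with each member probe set. Members and lists were chosen with earlier results of these data known. Alternatives were the floor, filter, normalisation, array weights, trend, 1 probe set per gene, the replicate block, score covariates, array sets and single arrays left out. No 2 arrays were alike enough to be 1 library (highest r 0.978 and 0.983). Precision is set by how many arrays a group has.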

Additional observations from a re-analysis of the deposited data

Results flagged for a closer look

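Probe set 1426519_at of P4ha1 had 1 array far from the others of its group: transgenic placebo 15 d replicate 9 read 5.58 on the log2 scale (intensity 48), against 6.47 for the nearest. It was the only such array in 99 tests of members within groups. Chance alone flags about 1 in 20 tests, so 1 of 99 is no more than chance gives. That array also listed 1092 probe sets at exactly 0.

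The genotype difference of Plod2 at 1416687_at changed between 12 h, 48 h and 15 d (limma F-test, F = 16.93, adjusted p = 0.00129), with the wild type arrays of 48 h near the transgenic ones. Plod3 also passed this F-test (F = 5.83, adjusted p = 0.0372). Its fall passed at 15 d, where 5 of the 7 transgenic arrays and no wild type array belong to set B. The F-test call of Plod3 was lost with array set as a block (adjusted p = 0.421) and with the replicate block (adjusted p = 0.357). It was also lost without the arrays with over 500 zeros (adjusted p = 0.0813) and in 9 of 27 fits leaving out a single array. Of all tested probe sets 21.3% passed this F-test, against 2 of 11 member probe sets.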

How the results depend on the processing

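Counts are of member probe sets called, and alternatives not named here left them within 1.5 times. With 1 probe set per gene the counts were 5 (genotype average), 3 (12 h), 3 (48 h), 4 (15 d), 1 (RAD001 48 h), 3 (15 d), 1 (6 d and 9 d), 2 (RAD001-treated against wild type, 12 h) and 1 (genotype by time), as fewer probe sets were tested. RAD001-treated against wild type at 15 d went from 0 to 1 (Plod3) with the 60th percentile filter, a floor of 64, quantile normalization, array weights, or without the arrays with over 500 zeros. Plod3 did not pass there without set B or with array set as a block. RAD001 at 12 h went from 0 to 1 (Plod2) with median scaling or array weights. The hypoxia slope count of 1 became 2 with a floor of 64 and 0 with array weights, the replicate block, no arrays with over 500 zeros, or score genes never at 0. Genotype by time went from 2 to 1 without the arrays with over 500 zeros, with the replicate block and with array set as a block. The cause of these changes was not tested.

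Replicate numbers did not pair the arrays: the correlation of same-numbered deviations ran from -0.25 to 0.51. With the replicate block, RAD001-treated against wild type at 48 h went from 3 to 6, and RAD001 at 6 d and 9 d from 3 to 0. The latter gave 0 for 6 d alone and 1 for 9 d alone. Without set B, genotype at 15 d went from 7 to 3 and RAD001 at 15 d from 6 to 0. With array set as a block, genotype at 15 d gave 4. The stroma score as a covariate took the genotype average from 8 to 5, and to 3 with genes never at 0. The hypoxia score as a covariate turned the genotype average of P4hb from 0.07 to -0.23. From genes never at 0, it gave counts of 0 for the genotype average, RAD001 48 h and RAD001 15 d. It turned the genotype average of Ero1a to -0.31 (1419029_at) and -0.20 (1449324_at) and of P4ha2 to -0.29. RAD001 48 h of Ero1a became 0.27 ± 0.34 (1419029_at), and RAD001 15 d became 0.50 ± 0.37 (1419029_at) and 0.17 ± 0.55 (1449324_at). RAD001 15 d of P4ha2 became 0.12 ± 0.29. None of these passed. This score did not overlap between placebo and RAD001 arrays at 48 h (0.38 to 0.53 against -0.08 to -0.02) or 15 d (0.10 to 0.37 against -0.42 to -0.24). Score and treatment therefore cannot be told apart there. With the score of all its genes RAD001 15 d of Ero1a gave -0.95, -1.23 and -1.66, all called.

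Leaving out 1 array at a time gave counts from 8 to 9 (genotype average), 5 to 7 (12 h), 5 to 5 (48 h), 4 to 7 (15 d, lowest without wild type replicate 1), 0 to 0 (RAD001 12 h), 3 to 4 (48 h), 6 to 6 (15 d), 0 to 3 (6 d and 9 d), 1 to 2 (genotype by time), 0 to 0 (RAD001 by time), 3 to 4 (wild type 48 h minus 12 h), 0 to 3 (hypoxia slope) and 0 to 0 (stroma slope). RAD001-treated against wild type gave 3 to 5 at 12 h (lowest without wild type replicate 1 or RAD001 replicate 1 or 3), 1 to 4 at 48 h (lowest without wild type replicate 3 or 4 or RAD001 replicate 2) and 0 to 1 at 15 d. Set B without wild type arrays, arrays with many zeros and 1 placebo array a day at 6 d and 9 d limit these data.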
